A study of Homo sapiens with 6 samples.

Results

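The numbered ZNF genes with numbers 1 to 299 were examined in the human cell line MO3.13, labelled as oligodendroglioma, after treatment with Klotho and in untreated controls. Members were chosen by symbol alone, as ZNF followed by digits only, among the genes that had their own probe set on the array. This gave 94 genes of 14232. All 94 matched a protein-coding gene of the RefSeq table (GRCh38.p14) by symbol and by Entrez number. That table lists 139 symbols in this number range, and the other 45 had no probe set paired with them alone, 36 of them appearing on a probe set with several symbols. ZNF10, ZNF24, ZNF91, ZNF93, ZNF197, ZNF207, ZNF267, ZNF268 and ZNF292 are among those not analysed here. At the upper edge of the number range lay ZNF296, with log2 signals of 6.47 ± 0.17 (control, SD, n = 3) and 6.50 ± 0.06 (treated), and the first measured gene beyond it was ZNF304, at 6.67 ± 0.29 and 6.74 ± 0.17.

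The symbol ZNF stands for zinc finger protein, and the number is only a label of the order of naming. Most of these proteins carry arrays of C2H2 fingers, small folds held by a zinc ion that read DNA a few bases at a time. The largest class also has a KRAB domain, which binds the co-repressor TRIM28 (KAP1), and TRIM28 in turn recruits the histone methyltransferase SETDB1 and the heterochromatin proteins of the CBX family. Many KRAB genes lie in clusters on chromosome 19, and many of the proteins bind transposable elements. A second class carries a SCAN domain, through which the proteins pair with each other, and further members have neither domain and include general activators of transcription.

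The study had 6 arrays. Growth in medium with 10% serum is given for the cells of all 6. The 3 control arrays came from MO3.13 cells kept in DMEM with 10% fetal bovine serum, with no other handling stated. The 3 treated arrays came from cells given recombinant mouse Klotho at 0.4 µg/mL for 3.5 h in DMEM without serum, so serum-free medium is named for the treated group alone and cannot be told apart from Klotho. Klotho itself, found on membranes and in blood, is known as a co-receptor for the hormone FGF23, and the title of the study names signalling pathways as what it was examined for. Whether a group's 3 arrays stand for separate cultures is not stated, and the p-values therefore reflect only the spread among these arrays, which could be technical.

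The array medians lay between 6.36 and 6.47 on the log2 scale, and the arrays correlated at r = 0.985 to 0.991 across probe sets. The labelled cell type was set against its markers. Of 11 oligodendrocyte lineage markers, 9 had a probe set of their own, and CNP (8.82) alone had a mean above the upper quartile of all probe sets (8.04), while the other 8, among them SOX10 (5.98), OLIG2 (5.46) and MBP (5.27), lay below the median probe set (6.40). Of 4 measured skeletal muscle markers, MYOD1 (9.68), DES (8.45) and MYOG (8.12) lay above the upper quartile. All 8 measured markers of astrocytes, neurons, microglia and blood lay below the median, at 2.54 to 5.79. Among the 9 lineage markers, only CNP was thus bright. In bulk samples of this kind, fewer cells of a type and less RNA per cell cannot be told apart.

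Most numbered ZNF genes gave a signal in the middle of the range of the array. Their means over the 6 arrays ran from 2.15 to 9.50 on the log2 scale, with a median of 6.54, against 6.59 for all genes. Of the 94 probe sets, 9 were under the lower quartile of the whole array (4.70), 28 between it and the median, 51 between the median and the upper quartile, and 6 above. Signals of different probe sets depend on their probes and are placed here only against those quartiles, not as amounts of transcript. The 6 brightest were ZNF106 (9.50), ZNF146 (9.10), ZNF254 (8.69), ZNF148 (8.40), ZNF195 (8.35) and ZNF43 (8.24). ZNF106 encodes an RNA-binding protein with zinc fingers and WD40 repeats, ZNF146 a small protein made almost wholly of fingers, and ZNF148 (ZBP-89) a factor of GC-rich promoters. The other 3 are KRAB genes. The 9 dimmest were ZNF99 (2.15), ZNF233 (3.58), ZNF221 (3.80), ZNF132 (3.84), ZNF208 (3.94), ZNF80 (4.03), ZNF214 (4.35), ZNF140 (4.57) and ZNF235 (4.65), and no detection calls were used to say whether these transcripts were present.

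No numbered ZNF gene passed the adjusted threshold after Klotho. Of the 94 genes, 0 had an adjusted p under 0.05 in limma, beside 0% of the 22011 probe sets tested, and the smallest adjusted p among the members was 0.998. At an unadjusted p under 0.05 there was 1 member higher in treated cells, beside 0.963% of all genes, and there were 0 lower, beside 1.11%. Over all probe sets the share in either direction was 3.19%. The treated mean was lower for 77 members and higher for 17, with a median difference of -0.08 (log2, treated minus control) and extremes of -0.38 and 0.21. Among all genes 62.6% had a lower treated mean, with a median difference of -0.03. The split of the members moved with the scaling of the arrays: after median centring of the arrays 59 were lower and 35 higher, beside 42.7% of all genes lower. Quantile normalization gave 58 and 36, beside 46.8%, and cyclic loess 63 and 31, beside 50.3%. Without control array 1 the members split into 50 lower and 44 higher, with a median of -0.003. Their median was -0.03 without treated array 1 and -0.17 without treated array 3.

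**Figure D1:**
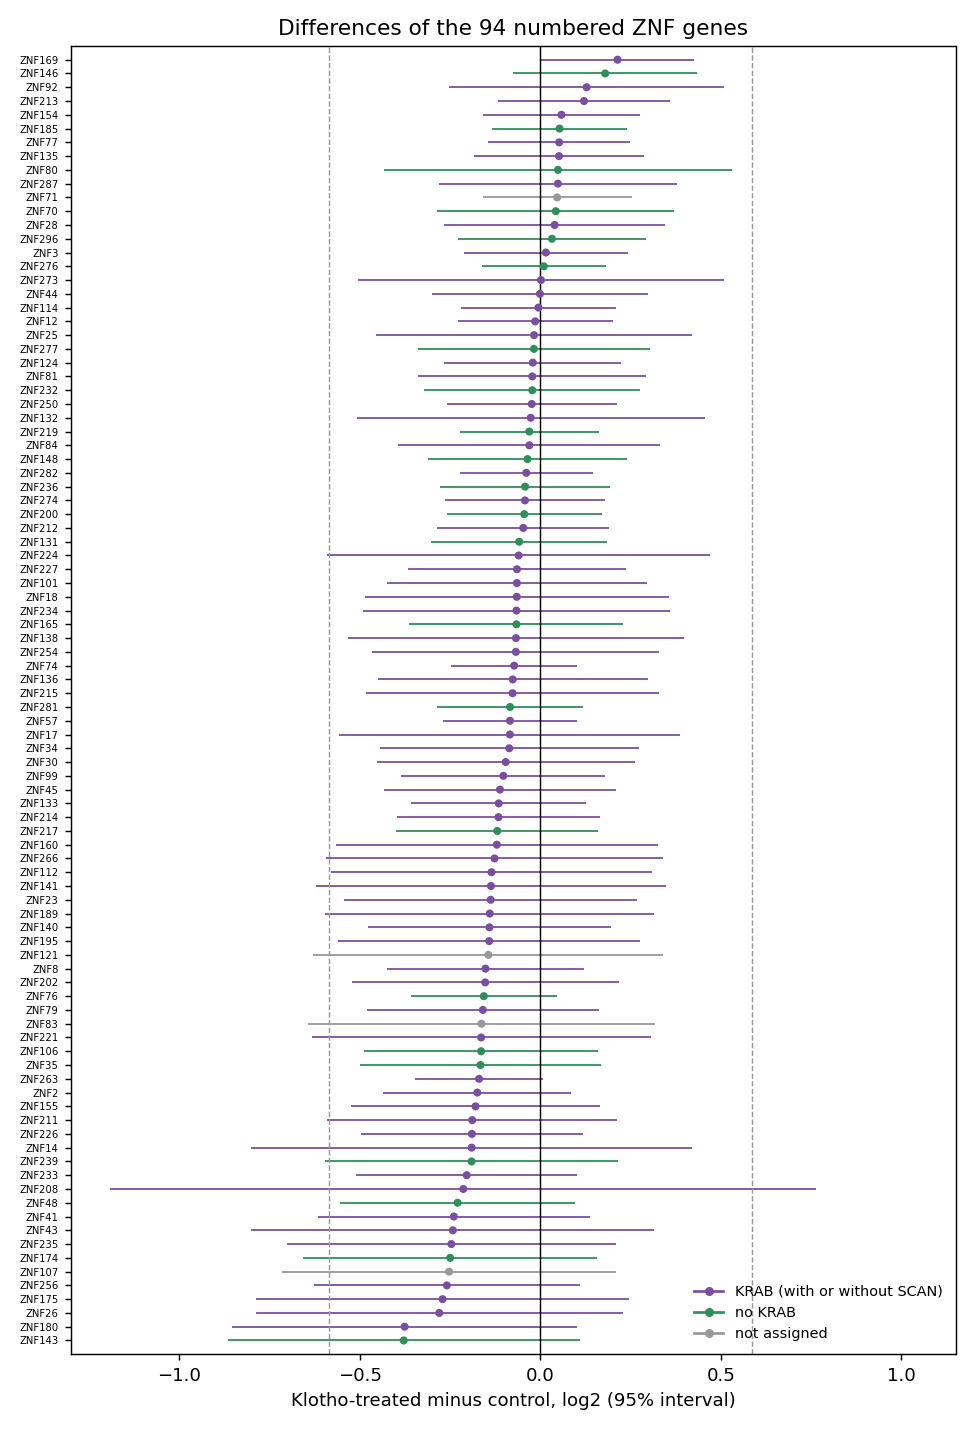
Difference between Klotho-treated and control cells (log2, horizontal axis) for each of the 94 numbered ZNF genes, ordered by size, with 95% intervals from limma; dashed lines mark a 1.5-fold change in either direction. Colours give the domain class. Points run from -0.38 for ZNF143 to 0.21 for ZNF169, and ZNF169 is the 1 gene whose interval does not include 0.

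The plot of the differences with their intervals shows how closely each gene was bounded. The 95% interval lay within a 1.5-fold change for 73 of the 94 members, whereas this held for 91.7% of all genes. The standard error of a member's difference had a median of 0.14, against 0.11 for all genes. ZNF208, a KRAB gene with a dim probe set, had the widest interval, from -1.19 to 0.76. Its values were 4.36, 4.54 and 3.25 on the control arrays and 3.43, 3.63 and 4.44 on the treated arrays, so that high and low arrays occurred in both groups. The difference was larger than the pooled SD of its groups for 19 members (20.2%), and for 25.4% of all genes. The 2 groups of values were fully separate for 3 members that were lower (3.19%, beside 5.3% of all genes) and for 1 that was higher (1.06%, beside 2.59% of all genes). For the 190 numbered ZNF genes from 300 upwards the shares were 6.84% and 1.58%. None of these shares was tested against another.

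Among the genes with neither a KRAB nor a SCAN domain was the member with the largest difference. ZNF143 encodes the activator that binds promoters of small nuclear RNA genes and of many protein-coding genes and takes part in chromatin looping. It measured 6.84, 7.23 and 6.75 on the control arrays and 6.22, 6.56 and 6.89 on the treated arrays. Treated array 1 was the lowest of the 6, and treated array 3 lay between the controls, so the groups overlapped. The difference was -0.38 (95% interval -0.87 to 0.11, limma adjusted p = 0.998), a ratio of 0.77. It was -0.21 without treated array 1 and -0.24 without control array 2. ZNF76, a close relative of ZNF143 with a similar finger array, measured 6.98, 7.08 and 7.02 in control and 6.89, 6.77 and 6.96 in treated cells. All 3 treated values lay below all 3 controls, and the highest treated value was 0.02 below the lowest control. The difference was -0.16 (95% interval -0.36 to 0.05, adjusted p = 0.998). ZNF48, whose role is less well described, measured 6.19, 6.03 and 6.25 in control and 5.68, 5.98 and 6.12 in treated cells. Its difference was -0.23 with treated array 1 and -0.10 without it.

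ZNF146 was the member without KRAB that measured highest above control after treatment. Its values were 9.06, 8.89 and 9.10 in control and 9.20, 9.05 and 9.33 in treated cells. Treated array 2 lay among the controls, while arrays 1 and 3 lay above all of them. The difference was 0.18 (95% interval -0.08 to 0.43, adjusted p = 0.998), and it was 0.08 with array quality weights. ZNF185, which despite its symbol encodes an actin-associated LIM-domain protein and not a C2H2 factor, differed by 0.05 (95% interval -0.13 to 0.24).

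**Figure D2:**
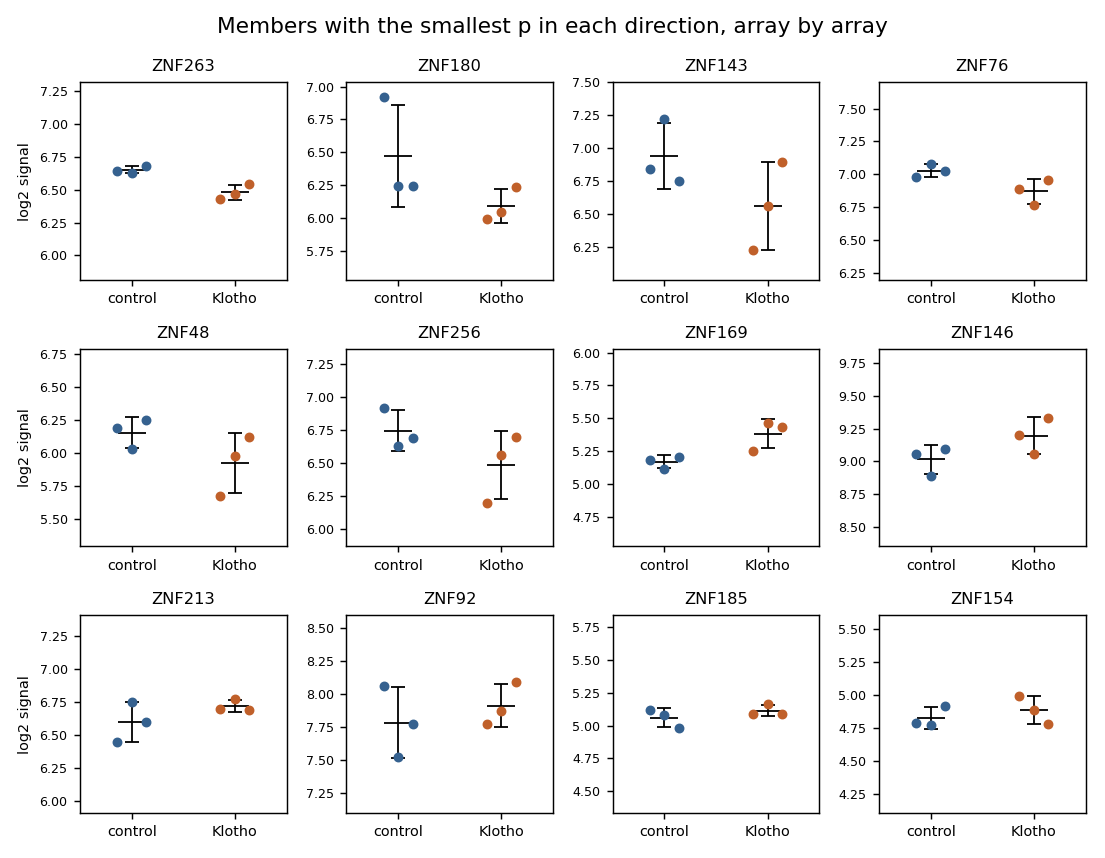
Log2 signal on each of the 3 control and 3 Klotho-treated arrays (points) with group mean and SD (bars) for the 6 lower and the 6 higher members of smallest p; every panel spans 1.5 log2 units. Only ZNF263, ZNF180, ZNF76 and ZNF169 have groups that do not overlap.

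ZNF106, the brightest member, differed by -0.16 (95% interval -0.49 to 0.16). Further members of this class with known roles follow. ZNF276 had the narrowest range of all 94 genes, 7.11 to 7.19 over the 6 arrays, and a difference of 0.01 (95% interval -0.16 to 0.18). ZNF217, a co-repressor subunit amplified in several cancers, measured 7.89 ± 0.14 (control, log2, SD, n = 3) and 7.77 ± 0.15 (treated), and differed by -0.12. ZNF281, a factor tied to stem cell gene programmes, measured 7.91 ± 0.07 and 7.83 ± 0.08, a difference of -0.08. ZNF148 differed by -0.04, ZNF219 by -0.03, ZNF236 by -0.04 and ZNF277 by -0.02 as deposited, and all 4 were above 0 under median centring and under quantile normalization. Of the 20 members with neither domain, 14 were lower and 6 higher as deposited, with a median of -0.04. Under the 3 other scalings 8 to 10 were lower, with a median of 0.00 to 0.01. None of the 20 passed.

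The KRAB class held 67 members, 7 of them with a SCAN domain too. As deposited, 57 were lower in treated cells and 10 higher, with a median difference of -0.08; under the 3 other scalings 45 to 48 were lower. None passed. Without control array 1 the class split into 31 lower and 36 higher, with a median of 0.01. Without treated array 3 it split into 61 lower and 6 higher, with a median of -0.18. With both arrays left out the split was 52 lower and 15 higher, with a median of -0.07. The assignment of members to domain classes came from general knowledge of these proteins and was made after the values were seen. ZNF71, ZNF83, ZNF107 and ZNF121 were left unassigned.

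ZNF180 differed most within this class. Its values were 6.92, 6.25 and 6.24 in control and 5.99, 6.05 and 6.24 in treated cells. Control array 1 stood 0.67 above the mean of the other controls, and the highest treated value lay only 0.005 below the lowest control. The difference of -0.38 (95% interval -0.85 to 0.10, limma adjusted p = 0.998) was -0.15 without control array 1 and -0.45 without treated array 3. ZNF256 measured 6.92, 6.63 and 6.69 in control and 6.20, 6.56 and 6.70 in treated cells. Treated array 1 was the lowest and control array 1 the highest, and the other 4 arrays lay close together. Its difference of -0.26 (95% interval -0.63 to 0.11) was -0.12 without treated array 1 and -0.37 without treated array 3.

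ZNF175 and ZNF43, 2 other KRAB genes with a wide range, had the same extreme arrays. ZNF175 read 7.14 on control array 1 and 6.23 on treated array 1, and its difference was -0.27 (95% interval -0.79 to 0.24), or -0.10 without control array 1 and -0.12 without treated array 1. ZNF43 read 8.66 and 7.69 on these arrays. Its difference was -0.24 (95% interval -0.80 to 0.32), or -0.09 without control array 1 and -0.03 without treated array 1. Without treated array 3 the differences of ZNF175 and ZNF43 were -0.45 and -0.44. ZNF41, a KRAB gene of the X chromosome, measured 6.92 ± 0.26 (control, log2, SD, n = 3) and 6.68 ± 0.16 (treated). ZNF74 had closer replicates in both groups, with a difference of -0.07 (95% interval -0.25 to 0.10). ZNF133 had close control arrays (SD 0.06) but not treated arrays (SD 0.15). It differed by -0.12 (95% interval -0.36 to 0.13). ZNF189, ZNF195 and ZNF254 differed by -0.14, -0.14 and -0.07, and the latter pair were above 0 without control array 1.

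In the other direction stood ZNF169, the 1 member with an unadjusted p under 0.05. This KRAB gene measured 5.19, 5.12 and 5.21 in control and 5.25, 5.47 and 5.43 in treated cells. All treated values lay above all controls. The difference was 0.21 (95% interval 0.001 to 0.43, adjusted p = 0.998). ZNF92 differed by 0.13 (95% interval -0.25 to 0.51), by 0.04 without treated array 3 and by -0.002 without control array 2. ZNF154 differed by 0.06 (95% interval -0.16 to 0.28). Both had overlapping groups.

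Of the SCAN genes, ZNF263 had the smallest p of all members that were lower. This factor, with a SCAN and a KRAB domain, measured 6.64, 6.63 and 6.68 in control and 6.43, 6.47 and 6.54 in treated cells. The treated values lay below every control, by 0.09 at the closest. The difference was -0.17 (95% interval -0.35 to 0.01, adjusted p = 0.998), and it ranged from -0.21 to -0.12 over all alternative settings. ZNF213 was higher by 0.12 (95% interval -0.12 to 0.36), ZNF202, described as a repressor of lipid metabolism genes, differed by -0.15 and ZNF274, which recruits SETDB1 to the 3′ ends of zinc finger genes, by -0.04. ZNF174, with a SCAN domain but no KRAB, measured 6.65 ± 0.30 (control, log2, SD, n = 3) and 6.40 ± 0.16 (treated). It read 6.99 on control array 1, and its difference was -0.25 with that array and -0.08 without it. Of the 10 genes with a SCAN domain, 8 were lower and 2 higher as deposited, and none passed. Under each of the 3 other scalings 6 were lower and 4 higher, with ZNF274 and ZNF232 above 0. Without control array 1 there were 4 lower and 6 higher. Leaving out treated array 3 instead gave 9 lower and 1 higher, and leaving out both arrays gave 6 and 4.

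The co-repressor genes through which KRAB proteins act did not pass either. Of 22 measured members of a list of TRIM28 partners and heterochromatin factors, 0 passed, 19 were lower and 3 higher as deposited with a median of -0.07, and 13 to 16 were lower under the 3 other scalings. TRIM28 measured 10.87 ± 0.08 (control, log2, SD, n = 3) and 10.81 ± 0.04 (treated), a difference of -0.07 (95% interval -0.26 to 0.12). SETDB1 measured 7.41 ± 0.04 and 7.28 ± 0.11, a difference of -0.13 (95% interval -0.34 to 0.07). The smallest p values belonged to the histone chaperone gene RBBP4 (-0.42, 95% interval -0.92 to 0.09), whose probe set was dim, and to the chromatin remodeller gene ATRX (-0.29, 95% interval -0.67 to 0.09). DAXX, which works with ATRX in placing a variant histone, differed by -0.17 and the DNA methylation cofactor UHRF1 by -0.12. The 3 higher genes were CBX5 (0.03), CBX3 (0.008) and RBBP7 (0.004). Without control array 1 the list split into 14 lower and 8 higher, with a median of -0.02. Without treated array 3 it split into 19 and 3, with a median of -0.10.

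Promoter sequences were searched for 3 short strings that the symbol rule did not use. RefSeq promoter windows of 300 bases, from 250 before to 50 after the start of the gene (GRCh38.p14), were at hand for 81 of the 94 members. The motif CCGGAAG, which holds the shorter core bound by ETS factors, occurred on either strand in 42% of these windows (34). It occurred in 14.2% of the windows of 15840 protein-coding genes and in 10.7% of all 27303. CCAAT occurred in 54.3%, against 36.4% and 35.7%, and GGGCGG, the GC box, in 60.5%, against 58.5% and 44.6%. The median GC content was 61.0%, and 62.7% for protein-coding genes. No test of these shares was made, and no string was present in all members. A match is a string of letters and not a bound site. Members with CCGGAAG had a median difference of -0.13 and 29 of 34 were lower, and those without it had -0.07 and 37 of 47. For CCAAT the values were -0.10 and 40 of 44 with the string, and -0.04 and 26 of 37 without it. For GGGCGG they were -0.08 and 40 of 49, and -0.07 and 26 of 32. None of these contrasts was tested.

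The windows of the 3 lower and the 3 higher members of smallest p that have one are printed 5′ to 3′ to show these letters. Capitals mark the GC box, the CCAAT box and the full string that holds the ETS core, on either strand. Overlapping matches run together, and the shorter ETS core outside that full string is not marked. Among the lower members lie ZNF263 at chr16:3283241-3283540 on the plus strand, ZNF180 at chr19:44500473-44500772 on the minus strand and ZNF143 at chr11:9460762-9461061 on the plus strand. Among the higher members lie ZNF169 at chr9:94259048-94259347 on the plus strand, ZNF146 at chr19:36214856-36215155 on the plus strand and ZNF213 at chr16:3134779-3135078 on the plus strand.
ZNF263: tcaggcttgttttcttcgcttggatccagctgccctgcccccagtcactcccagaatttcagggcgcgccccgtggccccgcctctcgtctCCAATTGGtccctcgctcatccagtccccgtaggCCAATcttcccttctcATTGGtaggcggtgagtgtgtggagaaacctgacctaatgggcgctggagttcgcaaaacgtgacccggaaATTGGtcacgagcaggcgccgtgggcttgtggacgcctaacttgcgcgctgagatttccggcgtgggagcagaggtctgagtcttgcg
ZNF180: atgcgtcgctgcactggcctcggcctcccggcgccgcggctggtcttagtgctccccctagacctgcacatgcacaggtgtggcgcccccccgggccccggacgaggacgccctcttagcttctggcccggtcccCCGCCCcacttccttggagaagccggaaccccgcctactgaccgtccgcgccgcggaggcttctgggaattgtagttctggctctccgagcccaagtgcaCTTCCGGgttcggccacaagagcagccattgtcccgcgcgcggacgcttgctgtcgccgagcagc
ZNF143: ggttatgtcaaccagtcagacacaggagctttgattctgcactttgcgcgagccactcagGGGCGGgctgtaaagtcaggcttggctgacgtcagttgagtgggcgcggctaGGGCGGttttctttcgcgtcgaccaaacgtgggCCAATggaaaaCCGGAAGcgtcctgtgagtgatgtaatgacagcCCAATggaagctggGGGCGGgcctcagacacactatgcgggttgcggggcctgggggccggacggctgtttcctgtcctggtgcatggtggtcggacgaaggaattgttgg
ZNF169: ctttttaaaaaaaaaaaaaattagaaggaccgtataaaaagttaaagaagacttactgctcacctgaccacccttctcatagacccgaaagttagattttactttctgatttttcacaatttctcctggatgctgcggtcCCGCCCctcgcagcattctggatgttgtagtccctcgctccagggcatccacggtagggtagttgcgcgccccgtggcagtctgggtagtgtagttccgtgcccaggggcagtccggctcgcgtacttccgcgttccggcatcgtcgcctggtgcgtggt
ZNF146: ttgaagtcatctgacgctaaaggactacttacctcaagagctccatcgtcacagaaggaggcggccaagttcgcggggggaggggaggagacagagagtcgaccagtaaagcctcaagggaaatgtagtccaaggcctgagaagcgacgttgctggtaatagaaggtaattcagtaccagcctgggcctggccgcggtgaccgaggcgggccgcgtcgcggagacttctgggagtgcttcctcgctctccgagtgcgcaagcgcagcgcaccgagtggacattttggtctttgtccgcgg
ZNF213: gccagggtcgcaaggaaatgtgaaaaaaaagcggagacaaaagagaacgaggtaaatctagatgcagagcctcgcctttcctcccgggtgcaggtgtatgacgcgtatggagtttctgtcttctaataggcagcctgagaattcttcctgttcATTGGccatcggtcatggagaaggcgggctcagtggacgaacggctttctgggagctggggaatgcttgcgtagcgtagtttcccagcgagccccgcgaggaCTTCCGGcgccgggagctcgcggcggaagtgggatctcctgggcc
The full string CCGGAAG occurs in windows of both directions, once each in ZNF180, ZNF143 and ZNF213, and in neither ZNF263, ZNF169 nor ZNF146. The ZNF263 window, of the lower member of smallest p, holds 5 CCAAT boxes and none of the other strings. That of ZNF143 holds 3 GC boxes and 2 CCAAT boxes, those of ZNF180 and ZNF169 hold 1 GC box each, and that of ZNF213 holds 1 CCAAT box. In the window of ZNF146 none of the 3 strings occurs.

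Single arrays of both groups stood apart for the members. Each gene's value on an array was set against its own mean over the 6 arrays. On control array 1, 77 of the 94 members lay above their own mean, with a median deviation of 0.20 on the log2 scale. On treated array 3, 72 lay above, with a median of 0.09. On treated array 1, 15 lay above, with a median of -0.13. The other arrays had medians of -0.05 (control array 2), -0.02 (control array 3) and -0.08 (treated array 2). High arrays and low arrays thus occurred in both groups, and the list median had group means of 0.04 in control and -0.04 in treated arrays. The SD of the list median was 0.13 among the controls and 0.12 among the treated arrays.

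**Figure D3:**
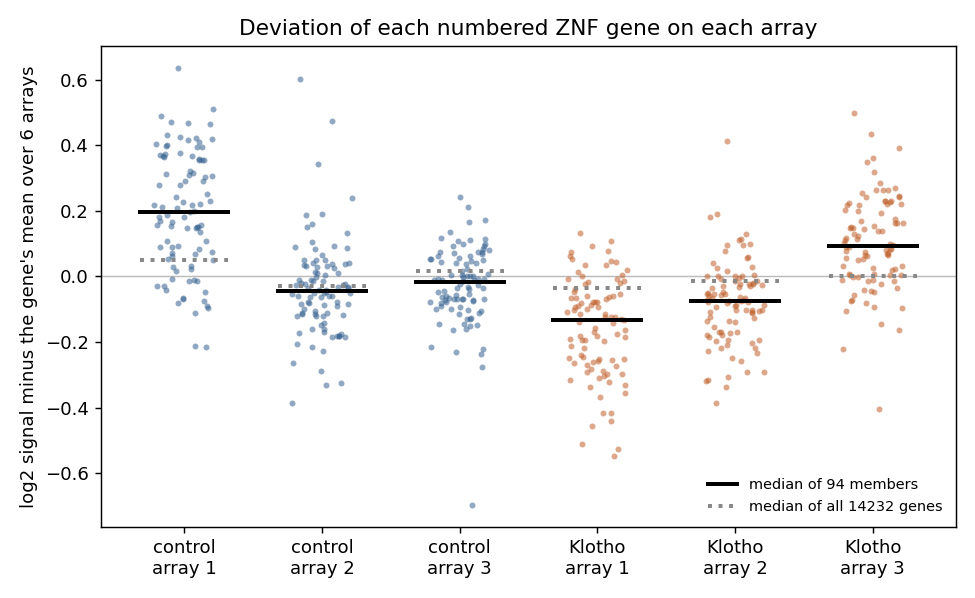
Log2 signal of each of the 94 members minus that gene's mean over the 6 arrays (points), by array, with the median of the members (black line) and of all 14232 genes (dotted line). The members' median is highest on control array 1 (0.20) and lowest on Klotho array 1 (-0.13), while the medians of all genes stay between -0.04 and 0.05.

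The plot of deviations by array shows the same highest and lowest arrays for all genes, at a smaller size. Control array 1 held the highest value of 50 members (53.2%) and of 33.8% of all genes, and treated array 1 the lowest value of 45 members (47.9%) and of 28.5% of all genes. The medians of all genes on these arrays were 0.05 and -0.04. On treated array 3 the members lay 0.21 above the mean of the other 2 treated arrays at the median, in 79 of 94 genes, and all genes 0.02 above, in 54.9%. Members are probe sets on the same arrays and no replicates of each other, so these counts describe the arrays. The 190 numbered ZNF genes from 300 upwards gave medians of 0.14, -0.09 and 0.06 on control array 1, treated array 1 and treated array 3, and 137 of them were lower in treated cells with a median of -0.06. The 22 co-repressor genes had medians of 0.13, -0.11 and 0.00 on those arrays. RNA quality and scan batch were not at hand, and their part in this pattern was not tested.

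The domain classes were also set against the arrays. The 67 KRAB genes lay 0.28 above the mean of the other 2 controls on control array 1 at the median, in 55 genes, and the 20 genes with neither domain 0.06 above, in 13. On treated array 1 the medians against the other 2 treated arrays were -0.17 and -0.09. On treated array 3 they were 0.21 and 0.15, with 85.1% and 80% of the genes above. The difference between the classes was not tested.

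In 1 run of neighbouring genes all members were brightest on the same array. By the order of protein-coding genes in RefSeq (GRCh38.p14), the longest unbroken run of ZNF genes by members held 20 genes, 11 of which are members: ZNF45, ZNF221, ZNF155, ZNF224, ZNF234, ZNF226, ZNF227, ZNF233, ZNF235, ZNF112 and ZNF180, all KRAB genes. All 11 had their highest value on control array 1, at a median of 0.45 above the other 2 controls. All 11 were lower in treated cells, by -0.38 to -0.06 as deposited and by -0.34 to -0.005 under the 3 other scalings, and none passed. All 11 stayed lower without treated array 3 (median -0.18), and 9 did without both this array and control array 1 (median -0.04). Without control array 1 alone there were 6 lower and 5 higher, with a median of -0.003. ZNF224, a repressor that binds the promoter of the aldolase A gene, shows the pattern: it measured 5.45, 4.66 and 5.13 in control and 4.91, 4.86 and 5.30 in treated cells, and its difference was -0.06 with control array 1 and 0.12 without it. ZNF112 measured 5.78, 5.08 and 5.58 and 5.40, 5.22 and 5.42, with a difference of -0.14 and 0.01 without control array 1. Genes of such a run arose by duplication, and their probes can bind transcripts of near-identical copies, so values of single genes in it are uncertain.

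**Figure D4:**
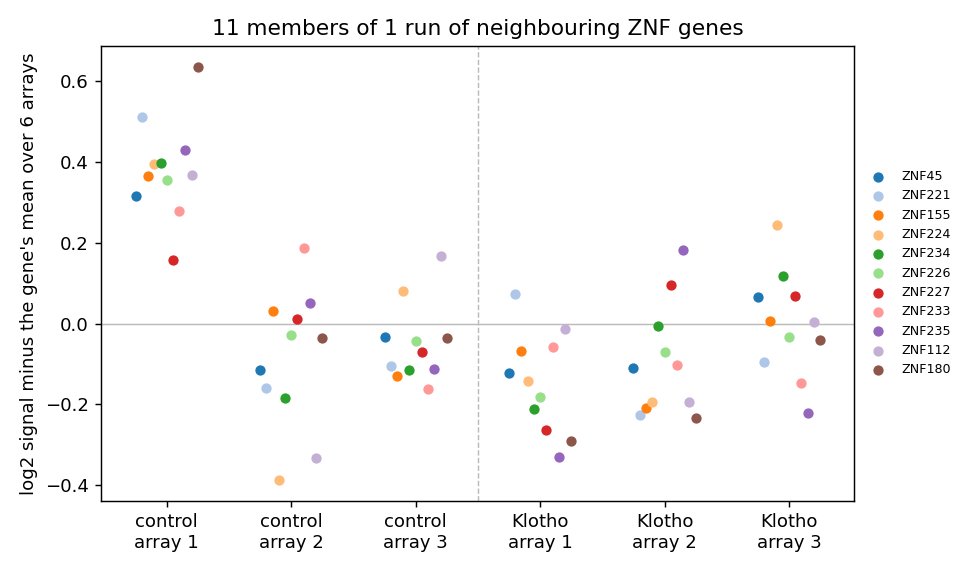
Log2 signal minus the gene's mean over the 6 arrays for the 11 members of 1 run of neighbouring ZNF genes, by array, with control arrays left of the dashed line. All 11 points on control array 1 lie above 0, and every other array has points on both sides of 0.

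Shorter runs held 3 members each and did not share 1 brightest array. ZNF43, ZNF208 and ZNF99 were all lower in treated cells at each of the 4 scalings. Their median was -0.21 as deposited, -0.06 without control array 1 and -0.44 without treated array 3. ZNF43 and ZNF99 were brightest on control array 1 and ZNF208 on control array 2. ZNF26, ZNF84 and ZNF140 were all lower as deposited, with a median of -0.14, but ZNF84 (-0.03) was above 0 under each of the other scalings and without control array 1. It was brightest on treated array 3, and the other pair on control array 1. In the run of ZNF107, ZNF138 and ZNF273, 2 were lower and ZNF273 differed by 0.002, and without control array 1 only ZNF107 was lower. ZNF107 was brightest on control array 1 and the other pair on treated array 3. ZNF26, which differed most among these (-0.28, 95% interval -0.79 to 0.23), read 6.34, 5.85 and 5.79 in control and 5.60, 5.47 and 6.07 in treated cells, with overlap between the groups. Its difference was -0.11 without control array 1 and -0.46 without treated array 3.

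The sign of many members depended on the scaling or on single arrays. Under the values as deposited and the 3 other scalings, 57 members were lower each time, 17 were higher each time and 20 changed sign. The filter on dim probe sets, the choice of probe sets, the variance model and the replicate block leave each member's difference unchanged. These settings therefore cannot turn a sign. Over all 17 settings, the left-out arrays included, 34 were lower each time and 5 were higher each time. The 5 were ZNF146, ZNF154, ZNF169, ZNF185 and ZNF213, chosen for naming after their values were seen. ZNF143, ZNF180, ZNF256, ZNF263, ZNF76 and ZNF48 were among the 34. Leaving out 1 array or another turned the sign of 50 of the 94 members, beside 51.1% of all genes. It turned the sign or shrank the difference by over 1.5 times for 89 members, beside 91.8% of all genes, and the exceptions were ZNF57, ZNF74, ZNF76, ZNF169 and ZNF263.

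**Figure D5:**
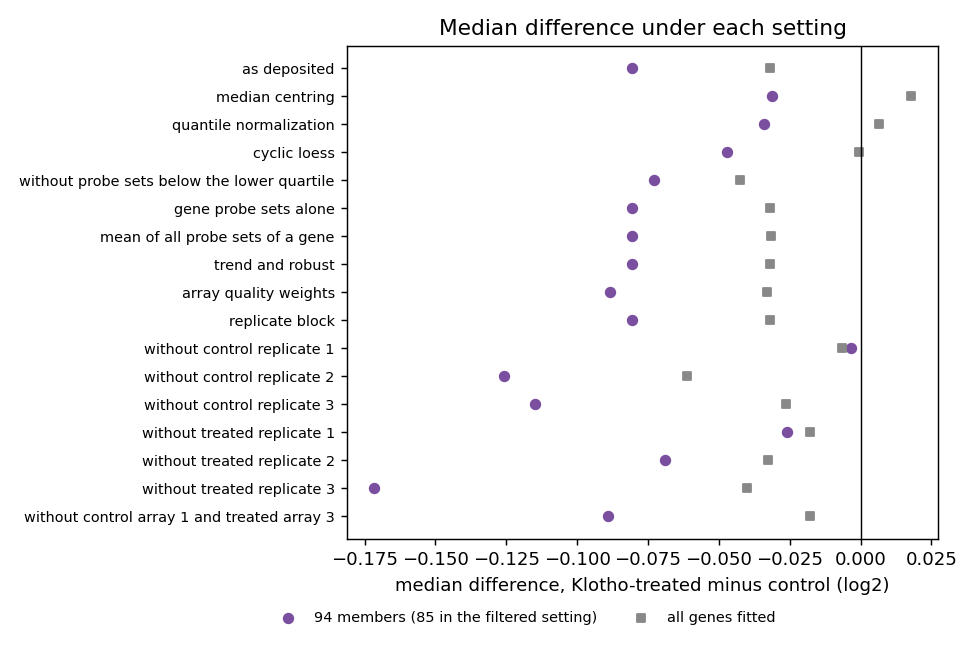
Median difference between Klotho-treated and control cells (log2, horizontal axis) of the members (circles) and of all genes in the fit (squares) under each of the 17 settings. The members' median runs from -0.17 without treated replicate 3 to -0.003 without control replicate 1, where it lies closest to that of all genes.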

How the data were processed

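Per the submitters' processing notes, the authors normalized the arrays with RMA (no version named) and deposited log2 signals, 1 for each probe set on each array. Per the labels' protocols, 100 ng of total RNA was amplified and labelled with biotin; the probe annotation names an exon array, here at the level of transcript clusters. Other steps: not given in the sources used here. Detection calls were not at hand, so all 22011 probe sets entered the fit.

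Where a gene had several probe sets of its own, the one with the highest mean was taken; each member had only 1. Probe sets with several symbols were not used, although 11 members also appear on one. Groups were compared by limma 3.58.1 under R 4.3.3 (linear model, moderated variance, 2-sided), with Benjamini-Hochberg adjusted p-values over the whole array and a threshold of 0.05; the fit was tested on simulated data. An exact permutation test of 3 arrays against 3 cannot go below 0.1. Arrays have no read depth; their number limits the precision.

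Named members were the 6 lower and 6 higher of smallest p, the 5 brightest and 3 dimmest, the 5 of widest range, a set fixed by known roles and the longest run of neighbours. The planned search of protein sequences was not run, for want of a protein table. Members, lists and alternatives were chosen with earlier results of these data known. Alternatives covered scaling, dim probe sets, the choice of probe set, the variance model, array weights, a replicate block and left-out arrays.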

Additional observations from a re-analysis of the deposited data

How the results depend on the processing

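With limma, 0 of the probe sets and 0 of the members passed the adjusted threshold under each of the 16 alternatives; 577 to 1644 probe sets and 0 to 3 members had an unadjusted p under 0.05. The number of members lower in treated cells was 77 as deposited, 50 without control array 1, and 50 to 81 over the fits that left out 1 array each; the median difference ran from -0.17 to -0.003 over those fits, and it was -0.09 when control array 1 and treated array 3 were both left out, with 72 lower. In this balanced design the replicate number used as a block cannot change a difference, so the 77 lower, 17 higher and median of -0.08 were fixed. Only the p-values could move: with the block 0 of the members were called and 0 had an unadjusted p under 0.05, against 1 without it. Same-numbered arrays did not deviate together (correlations of -0.18, 0.06 and -0.14), so the numbers were not taken to pair the samples. Of 683 values of the 43 named members under the alternatives, 46 changed sign, in 18 genes, and none of these had an unadjusted p under 0.05. The 683 include values from settings that cannot turn a sign: the filter on dim probe sets, the choice of probe sets, the variance model and the block. The filter on dim probe sets left 85 members, of which 69 were lower. The mean of all probe sets changed no member, since each had 1. The number of arrays limits what could be called.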
